A study of Mus musculus with 5 samples.

Results

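Matrix metalloproteinases, the tissue inhibitors that block them and a related disintegrin protease were followed through ureteric obstruction of the mouse kidney and its release. The 9 genes were taken by symbol from the gene list of the droplet files: the metalloproteinases Mmp8, Mmp9, Mmp12, Mmp13, Mmp14 and Mmp19, the inhibitors Timp1 and Timp3, and Adamts1. All 9 symbols were found, among 28692 gene identifiers, 46 of which have a symbol that starts with Mmp, Timp or Adamts. Kidneys of C57/BL6 mice aged 8 weeks were compared after sham surgery (day 0), on day 2 and day 7 of unilateral ureteric obstruction (UUO), and 7 days after the obstruction was reversed (experimental day 14). Each of these 4 time points is 1 droplet library of unique molecular identifiers (UMIs), made from 3 pooled mice, so animals cannot be told apart and no time point has a replicate. A further Smart-seq2 sample of 768 wells mixes all time points. No transgene, Cre or drug is named in the labels, but the Smart-seq2 table holds a row named EGFP, a green fluorescent reporter, with reads in 731 of the 768 wells.

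Matrix metalloproteinases are zinc proteases that are made as inactive precursors and cut collagens, elastin, gelatins and many non-matrix proteins. Most are secreted, whereas Mmp14 is held in the cell membrane and activates other members there. TIMPs bind the active site, and Timp3 also binds to the matrix itself and blocks several ADAM and ADAMTS proteases, among them Adamts1, a secreted protease that cleaves proteoglycans. In the obstructed kidney these genes are studied because matrix builds up in the interstitium, and both leukocytes and resident stromal cells can supply the proteases and their inhibitors.

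Mmp8, Mmp12 and Mmp13 lie close together on chromosome 9 and had most of their UMIs in phagocytes, so the stretch around their start sites is shown, beside that of Adamts1, whose UMIs lay mostly in epithelium. Each line runs from 100 bases before to 20 bases after the start site that RefSeq lists, 5′ to 3′ on the gene's strand, in GRCm38.p6. Capitals mark the AP-1 motif TGANTCA and the TATA motif TATAAA, searched on both strands, and no match overlaps another.
Mmp8 (chr9:7558329-7558448, + strand): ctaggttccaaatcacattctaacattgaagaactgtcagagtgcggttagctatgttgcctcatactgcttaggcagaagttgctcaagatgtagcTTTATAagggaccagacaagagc
Mmp12, second start (chr9:7347274-7347393, + strand): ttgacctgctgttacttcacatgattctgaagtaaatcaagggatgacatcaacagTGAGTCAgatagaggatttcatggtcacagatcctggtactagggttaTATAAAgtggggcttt
Mmp13 (chr9:7272414-7272533, + strand): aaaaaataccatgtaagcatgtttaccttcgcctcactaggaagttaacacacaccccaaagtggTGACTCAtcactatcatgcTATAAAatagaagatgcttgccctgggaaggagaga
Adamts1 (chr16:85803094-85803213, - strand): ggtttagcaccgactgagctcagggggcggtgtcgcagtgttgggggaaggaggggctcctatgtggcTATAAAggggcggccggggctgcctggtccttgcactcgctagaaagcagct
The AP-1 letters occur 44 bases before the second start of Mmp12 and 35 bases before that of Mmp13, and in 7.81% (2565) of 32851 RefSeq promoter windows of 300 bases. The TATA letters occur 16 bases before the start of Mmp13, 32 bases before that of Adamts1, 3 bases before that of Mmp8 on the opposite strand and 4 bases after the second start of Mmp12, and in 13.6% (4473) of all windows. The windows of 7 of the 9 genes were matched, 8 in all since Mmp12 has 2 starts, and Mmp14, Timp1, Timp3 and the first start of Mmp12 hold neither motif. A match of letters is a description only, and UMIs counted at the 3′ end do not tell which start was used.

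In GRCm38 with GENCODE M21 names, Mmp8 spans chr9:7558456-7568485, Mmp12 chr9:7344381-7369499 and Mmp13 chr9:7272514-7283331, all on the + strand. Mmp9 lies at chr2:164940780-164955850, Mmp14 at chr14:54431612-54445364 and Mmp19 at chr10:128790910-128800824, also on the + strand. Timp1 lies at chrX:20870166-20874735 and Timp3 at chr10:86300372-86349506 on the + strand, and Adamts1 at chr16:85793827-85803113 on the − strand. Timp1 and Timp3 lie within the synapsin genes Syn1 and Syn3, Mmp12 overlaps Mmp1b on the opposite strand, and Mmp19 overlaps Gm47093 and Tmem198b. The strand setting of the counting is not given in the sources used here, so reads of such overlapping genes may have been shared or dropped.

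The 4 libraries held 2739 to 5938 deposited cells and 18649637 to 30462683 UMIs, and 13332 cells were kept. The sham library stands apart, with a median of 2480.5 UMIs per cell and 40.6% mitochondrial UMIs, against 4709 to 5668 UMIs and 3.00% to 16.2% in the others. Of 16730 distinct barcodes, 146 occurred in 2 libraries, 87 of them among kept cells. Cells were put into classes by marker genes that exclude the 9 genes. In the order sham, day 2, day 7 and reversed, this gave 63, 548, 2436 and 640 mononuclear phagocytes, 229, 151, 481 and 366 endothelial cells, 3405, 1240, 838 and 1696 tubule cells, 13, 22, 83 and 114 fibroblasts or mural cells, 16, 100, 304 and 259 T cells, and 0, 20, 47 and 16 neutrophils. Levels are UMIs per 1000000 UMIs of the class (CPM), with an exact Poisson 95% interval in brackets that covers counting error only. Each molecule gives 1 UMI at its 3′ end whatever its length, and no level is compared between genes. Ratios are log2 of (CPM + 1) between libraries with an exact binomial 95% interval, and a ratio was called past 2-fold if it reached 1 in size, its interval left out 0 and both libraries together held at least 30 UMIs. With 1 library per time point there is no test, so higher and lower below describe these libraries.

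The 9 genes differed in the cells that held their UMIs over the 4 libraries. Mmp12 and Mmp13 were phagocyte genes, with 93.4% of 6093 and 92.0% of 327 UMIs there. Mmp8 and Mmp9 were shared by phagocytes and neutrophils, which held 77.5% and 19.8% of 481 UMIs of Mmp8 and 41.7% and 32.3% of 446 UMIs of Mmp9. Fibroblasts and mural cells held 56.5% of 3630 UMIs of Timp1, and 25.6% of 2862 UMIs of Mmp14, of which 47.5% lay in phagocytes. Tubule cells held 73.0% of 42919 UMIs of Timp3 and 69.7% of 4535 UMIs of Adamts1. Mmp19 gave 144 UMIs in all, 69.4% of them in phagocytes. These shares also depend on how many of the 77925494 UMIs of kept cells each class gave. In the order sham, day 2, day 7 and reversed, phagocytes gave 227903, 6040665, 16965890 and 4962449 UMIs. Tubule cells gave 11448058, 9088597, 6869342 and 10995095, fibroblasts and mural cells 66996, 157211, 810014 and 984213, and neutrophils 0, 93219, 204608 and 64475.

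**Figure D1:**
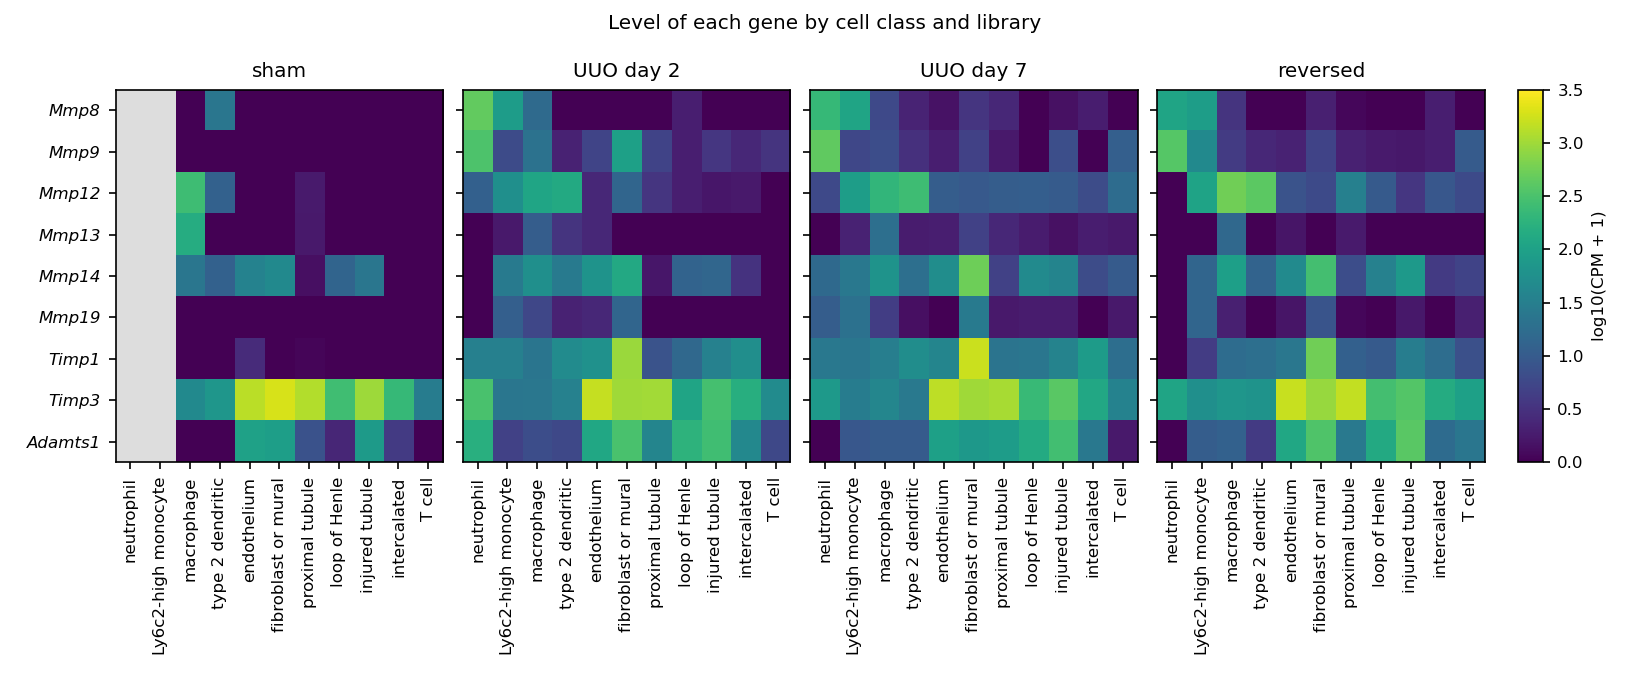
Level of the 9 genes (rows) in 11 cell classes (columns) in each droplet library, as log10(CPM + 1) on 1 colour scale. Grey marks sham neutrophils (0 cells) and sham Ly6c2-high monocytes (8 cells). Timp3 is bright in endothelium and proximal tubule in every library, whereas Timp1 is dark in the sham library and bright in fibroblasts or mural cells of the other 3.

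Counted over the 9 genes, tubule cells had 4 ratios past 2-fold in each comparison with sham. There, 3 of 4 genes with enough UMIs were higher and 1 was lower on day 2 than in sham, where 25.0% of all genes passed 2-fold in either direction and 21.0% upwards, and 4 of 5 were higher in the reversed library than in sham, where 22.0% passed and 21.6% upwards. The median ratio of all genes in these comparisons was 0.50 and 0.47, and TMM scaling moved them by −0.59 and −0.60, so the tubule ratios to sham are to be read against that shift, which ended no call and turned no direction among the 9 genes in tubule cells. TMM scaling moved the ratios of fibroblasts and mural cells by −0.13 to 0.34 and carried a few of them across 2-fold, as given with each gene below. Between day 2 and day 7, 2 of 6 were higher on day 7 (background 8.17%), and 2 of 5 were higher and 1 lower in the reversed library than on day 7 (8.27%). In phagocytes 1 of 8 genes was higher and 2 were lower on day 2 than in sham (10.4%), 2 of 9 were lower on day 7 than on day 2 (10.1%), 1 of 9 was higher in the reversed library than on day 7 (2.8%), and 2 of 7 were higher and 1 lower in the reversed library than in sham (7.08%). In endothelium 1 of 4 was higher on day 2 (7.54%) and in the reversed library (8.93%) than in sham, and none of 4 (8.62%) or of 5 (3.92%) passed between day 2 and day 7 or between day 7 and reversal. In fibroblasts and mural cells 2 of 3 were higher on day 2 than in sham (14.8%), 1 of 4 was higher and 1 lower on day 7 than on day 2 (18.4%), 1 of 4 higher and 1 lower in the reversed library than on day 7 (12.7%), and 3 of 4 higher and 1 lower than in sham (13.6%). Comparisons with sham share that library, and those with day 7 share that one. A gene that is high in 1 library reaches the 30 UMIs more easily, so these counts cover only the genes that reached them and describe no more than that.

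**Figure D2:**
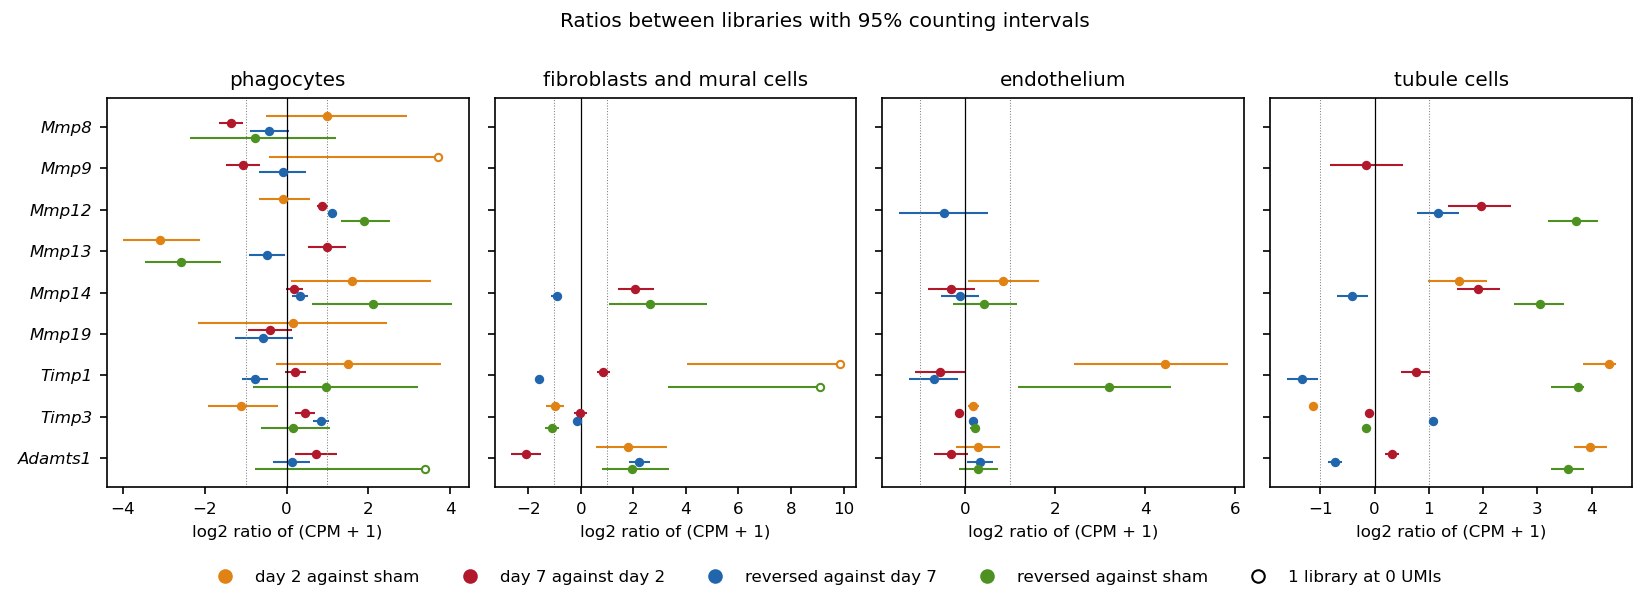
Log2 ratio of (CPM + 1) between libraries (x axis) for each of the 9 genes with at least 30 UMIs over both libraries, in 4 cell classes. Points are ratios with 95% counting intervals, dotted lines mark 2-fold, and open points have 1 library at 0 UMIs, so that their position depends on the pseudocount. Adamts1 and Timp1 lie beyond 2-fold above sham in tubule cells, and Mmp13 lies below sham in phagocytes.

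Mmp8, the collagenase that neutrophils store in their granules, was highest in neutrophils in each library that had them. Its level there was 461 [334 to 621] CPM on day 2, 220 [160 to 294] on day 7 and 109 [43.7 to 224] after reversal, from 43, 45 and 7 UMIs. The last interval overlapped that of Ly6c2-high monocytes after reversal, at 87.1 [57.4 to 127] CPM. Day 7 was lower than day 2 (log2 ratio −1.07 [−1.70, −0.43]), where 18.4% of all genes passed 2-fold in either direction in neutrophils, and the interval of the reversed library overlapped that of day 7. A few cells carried this ratio, since 5 cells held 83.7% of the UMIs in 20 neutrophils of day 2 and 73.3% in 47 of day 7, and without those cells it was −0.52 [−1.97, 1.04] and not called. Of the neutrophils, 45%, 31.9% and 25% had a UMI of Mmp8, while no T cell had one in any library.

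Among phagocytes, Mmp8 belonged to Ly6c2-high monocytes, the inflammatory monocytes that enter from blood, which held 49.1% of all its UMIs. Their level was 29.5 CPM in sham from 1 UMI in 8 cells, 84.7 [69.7 to 102] on day 2, 109 [88.4 to 133] on day 7 and 87.1 [57.4 to 127] after reversal. The 3 later libraries overlap, and 32.9%, 38.2% and 23.8% of these monocytes had a UMI. Macrophages gave 0, 15.1, 4.90 and 2.35 CPM in the same order of libraries. Over all phagocytes Mmp8 was at 13.2, 27.1, 10.0 and 7.25 CPM and was lower on day 7 than on day 2 (−1.35 [−1.65, −1.05], or −0.89 with a pseudocount of 10 CPM), while Ly6c2-high monocytes made up 152 of 548 phagocytes on day 2 and 136 of 2436 on day 7. Within Ly6c2-high monocytes the same ratio was 0.36 [−0.04, 0.77], and the part of this makeup in the ratio over all phagocytes was not tested.

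Mmp9, a gelatinase, was likewise highest in neutrophils. Its level there was 333 [226 to 472] CPM on day 2, 435 [349 to 535] on day 7 and 372 [238 to 554] after reversal, and 60%, 74.5% and 50% of neutrophils had a UMI. These intervals overlap in all 3 libraries, so no difference between them was detectable at this depth. In phagocytes Mmp9 was at 0, 12.1 [9.47 to 15.2], 5.25 [4.21 to 6.46] and 4.84 [3.10 to 7.20] CPM. T cells of the same libraries gave 0, 2.36, 10.5 and 9.16 CPM. Only on day 2 was the phagocyte level above that of T cells, and the intervals overlapped. The T cell level of that day rests on 1 UMI [0.060 to 13.1], and 5 cells held 71.2% of the 73 phagocyte UMIs. The ratio of day 7 to day 2 in phagocytes was −1.07 [−1.47, −0.65], but 0.066 without the 5 cells with most UMIs in each library. In Ly6c2-high monocytes of the reversed library 14 UMIs lay in 3 of 42 cells, 10 of them in 1 cell. The day 2 level of 95.4 CPM in fibroblasts and mural cells came from 15 UMIs, 14 of them in 1 cell.

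**Figure D3:**
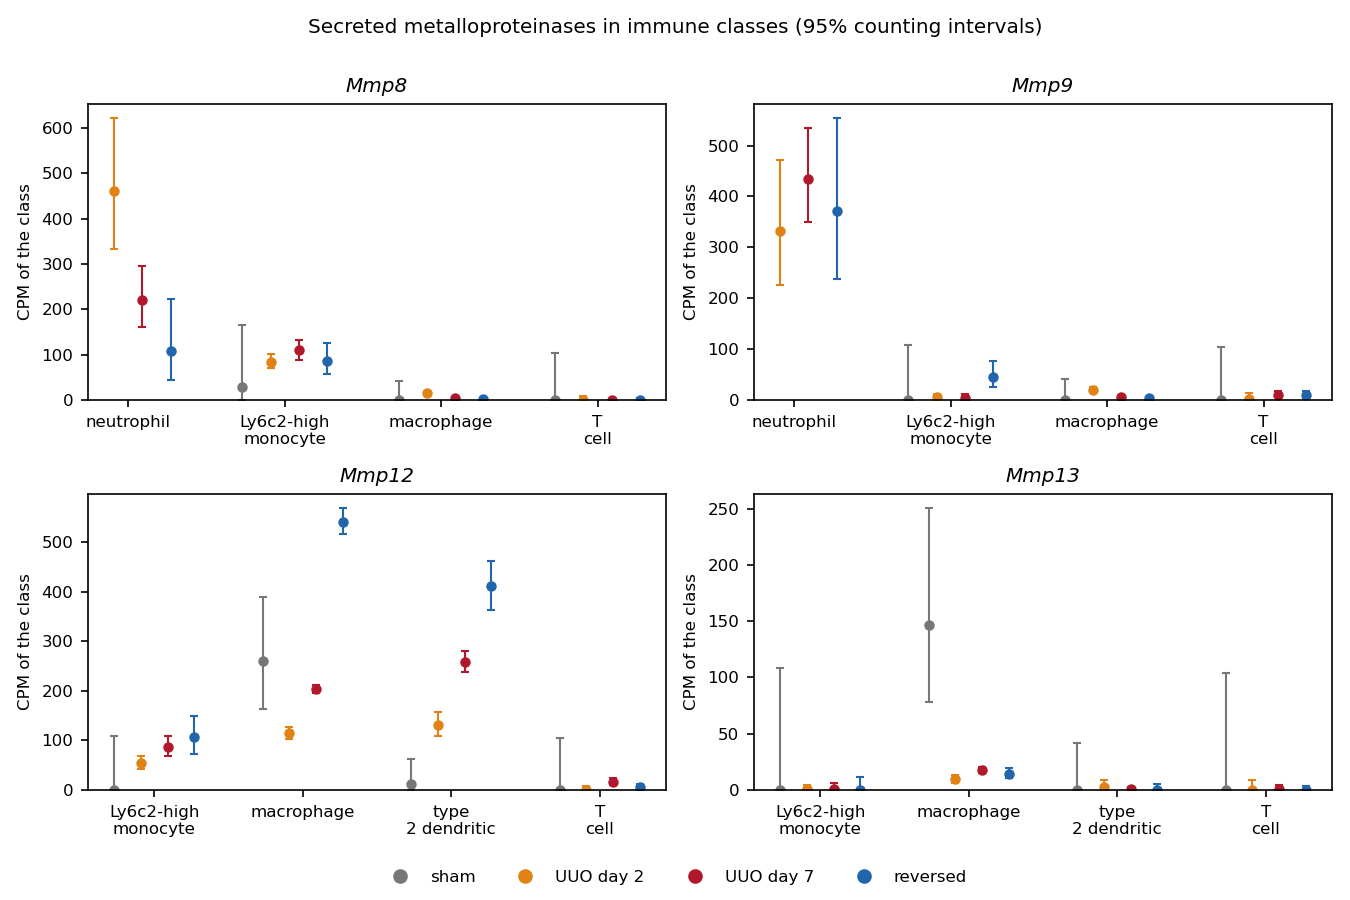
Level in CPM (y axis, linear) of Mmp8, Mmp9, Mmp12 and Mmp13 in immune cell classes (x axis), 1 point for each library with its 95% Poisson interval; a class without a point had no cells in that library. Mmp8 and Mmp9 are highest in neutrophils, Mmp12 in macrophages and type 2 dendritic cells of the reversed library, and Mmp13 in sham macrophages.

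Mmp12, the macrophage elastase, had its highest phagocyte level in the reversed library. In phagocytes it was at 105 [67.5 to 157] CPM in sham, 99.3 [91.5 to 108] on day 2, 183 [177 to 190] on day 7 and 396 [378 to 414] in the reversed library. The reversed library lay above the other 3 with no overlap, and sham and day 2 overlapped. It was higher in the reversed library than on day 7 (1.11 [1.03, 1.19]) and than in sham (1.90 [1.33, 2.54]). Day 7 against day 2 gave 0.88 [0.75, 1.00], under 2-fold. The ratio of the reversed library to day 7 was between 0.89 and 0.97, just short of 2-fold, when cells were weighted equally, thinned to 1000 UMIs each or stripped of the 5 cells richest in Mmp12.

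The share of phagocytes with a UMI of Mmp12 changed less than its level: 15.9%, 17.3%, 18.3% and 22.8% in the same order. After thinning to 1000 UMIs per cell these shares were 7.94%, 5.66%, 8.09% and 13.4%. Cells with 20 or more Mmp12 UMIs numbered 0 of 63, 6 of 548, 41 of 2436 and 30 of 640, and held 0%, 29.7%, 46.6% and 71.2% of the phagocyte UMIs of Mmp12. The highest cell held 5, 41, 82 and 117 UMIs. Thus 4.69% of phagocytes in the reversed library carried most of this transcript, whereas in sham, where the median phagocyte had 3093 UMIs against 6702, no cell passed 5.

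**Figure D4:**
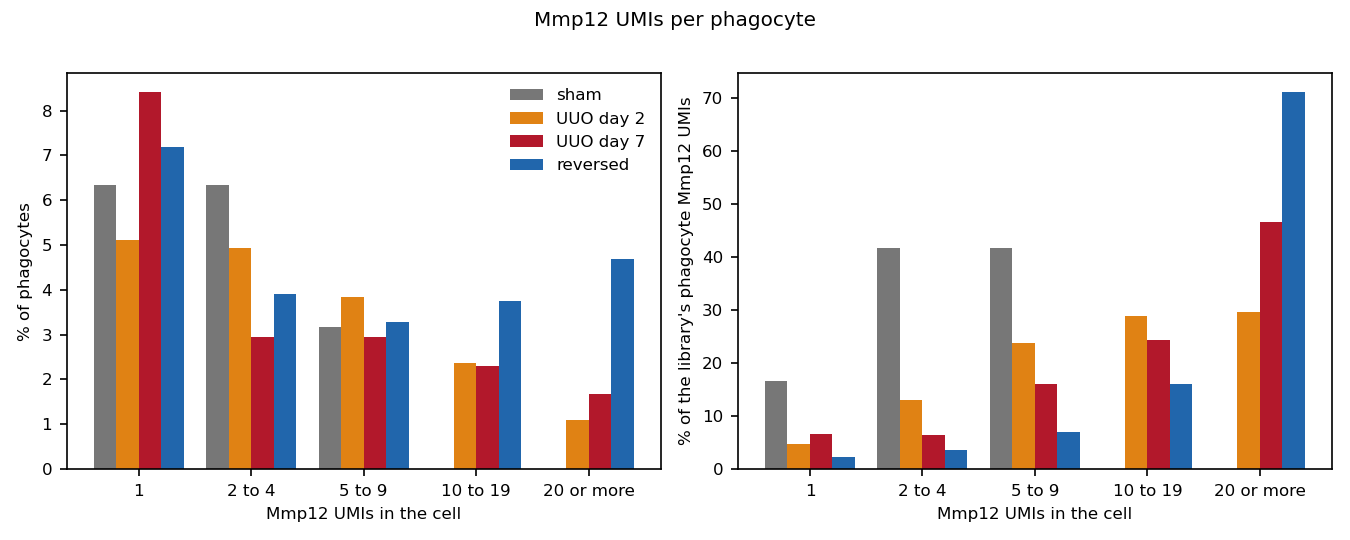
Share of phagocytes (left, %) and of the phagocyte UMIs of Mmp12 (right, %) by the number of Mmp12 UMIs in a cell (x axis), with bars for the 4 libraries; cells with 0 UMIs are left out of the left panel. In the reversed library cells with 20 or more UMIs are 4.69% of phagocytes and hold 71.2% of the UMIs.

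Macrophages and type 2 dendritic cells were the main carriers of Mmp12. Macrophages had 259 [164 to 389], 114 [103 to 127], 203 [195 to 212] and 542 [515 to 569] CPM, lower on day 2 than in sham (−1.17 [−1.78, −0.50]) and higher in the reversed library than on day 7 (1.41 [1.32, 1.50]) and than in sham (1.06 [0.47, 1.72]). The sham level rests on 23 UMIs, 78.3% of them in 5 of 31 cells. Without the 5 cells with most Mmp12 in each library, which for single classes is an alternative chosen after the data were seen, the macrophage ratio of day 2 to sham turned to 0.061 [−1.17, 1.66], while the reversed library stayed higher than day 7 (1.15 [1.04, 1.25]) and than sham (2.46 [1.24, 4.04]). In sham 96.8% of macrophages lay in 1 cluster, which held 64.2% of those of day 7 and 50.2% of the reversed ones, while 62.5% of those of day 2 lay in another, and the part of this shift in the macrophage ratios of Mmp12 and Mmp13 was not tested. Of all genes in macrophages 11.5% passed 2-fold on day 2 against sham, 3.87% after reversal against day 7 and 5.45% after reversal against sham. Type 2 dendritic cells had 11.3 CPM in sham from 1 UMI in 17 cells, then 131 [108 to 158], 258 [239 to 280] and 411 [364 to 462] CPM. Day 2 was higher than sham there (3.43 [1.02, 6.70], background 9.85%), a call that ended without the 5 richest cells of each library (38 against 0 UMIs), and the intervals of the day 7 and reversed levels did not overlap with each other or with that of day 2. The share of these cells with a UMI was 25.4%, 34.9% and 24.7% in the 3 later libraries. After reversal 5 of 77 cells held 70.8% of the UMIs, against 30.8% in 5 of 289 cells on day 7. The order of the reversed and day 7 levels thus rests on these few cells.

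Ly6c2-high monocytes had 0, 55.2, 86.4 and 106 CPM of Mmp12 in the 4 libraries. Type 1 dendritic cells, the cross-presenting subset, had 28.0, 11 and 36.6 CPM on day 2, day 7 and after reversal, with 24 of the 27 reversed UMIs in 1 cell, and none of these cells were found in sham. T cells gave 0, 0, 16.5 and 5.09 CPM, and 6.25% of T cells had a UMI on day 7. In tubule cells Mmp12 was at 0.699, 1.54, 8.88 and 21.2 CPM, and 7.28% of them had a UMI on day 7, where none held more than 1, so the tubule level of day 7 was below that of T cells in the same library. Whether it is expression or free RNA was not tested. In the reversed library 164 of the 233 tubule UMIs lay in 1 proximal tubule cell. Tubule Mmp12 was 1.17 higher than on day 7 with that cell and −0.42 without the 5 richest cells.

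Mmp13, the interstitial collagenase of rodents, was lower in phagocytes of each later library than in sham. In macrophages it was at 147 [78.0 to 251] CPM in sham, 9.64 [6.60 to 13.6] on day 2, 17.7 [15.4 to 20.3] on day 7 and 14.4 [10.4 to 19.4] after reversal. Sham lay above the other 3 libraries with no overlap, but rests on 13 UMIs in 9 of 31 macrophages. Of macrophages 29.0%, 3.03%, 5.25% and 6.10% had a UMI, in spite of the lower depth of the sham cells. Over all phagocytes the levels were 57.0, 5.79, 12.4 and 8.67 CPM, with ratios of −3.09 [−3.99, −2.10] on day 2 and −2.59 [−3.47, −1.60] after reversal against sham. On day 2, 1 macrophage held 19 of the 35 phagocyte UMIs. Thinned to 1000 UMIs per cell, or without the 5 richest cells, both ratios stayed between −3.42 and −1.74 but no longer met the rule for a call.

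Mmp13 was rare elsewhere, with 1 UMI in 679 T cells of the 4 libraries and 17 UMIs in tubule cells. Of these, 7 lay in sham proximal tubule, 5 in 1 cell. Mmp12 and Mmp13 were seldom in the same cell: 2 of 63, 3 of 548, 30 of 2436 and 5 of 640 phagocytes had both. On day 7 Mmp13 was in 6.73% of phagocytes with Mmp12 and in 3.42% of those without, and after reversal in 3.42% and 4.25%. Phagocytes with Mmp12 were deeper, with a median of 8144 against 6128 UMIs on day 7, so these shares are not at matched depth.

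Transcripts of other cells within phagocytes also differed between libraries. The 15 proximal tubule markers, all detected, summed to 2971, 440, 537 and 1505 CPM in phagocytes, highest in the 2 libraries with most tubule cells. Neutrophil markers summed to 26.3, 254, 301 and 152 CPM. Their part in the ratios was not tested.

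Mmp14, the membrane-anchored activator of other metalloproteinases, was highest in fibroblasts and mural cells in each library, although in sham and on day 2 the interval overlapped that of endothelium. It was at 44.8 [9.23 to 131] CPM in sham, 127 [77.7 to 196] on day 2, 533 [484 to 586] on day 7 and 282 [250 to 318] after reversal. In the class as a whole day 7 was higher than day 2 (2.06 [1.42, 2.78]) and the reversed library was higher than sham (2.63 [1.09, 4.80]), while the ratio of reversed to day 7 was −0.91 [−1.14, −0.69], under 2-fold but −1.05 with TMM scaling.

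This class mixed 2 kinds of cell in unequal parts. Split by collagen against contractile markers, a split chosen after the data were seen, it held 1, 5, 77 and 59 cells on the fibroblast side and 12, 17, 6 and 55 on the mural side. On the fibroblast side Mmp14 was at 300 [168 to 495] CPM on day 2, all 15 UMIs in 1 of 5 cells, 555 [503 to 610] on day 7 and 471 [409 to 538] after reversal, and 90.9% and 84.7% of the cells had a UMI in the last 2. The ratio of reversed to day 7 there was −0.24 [−0.48, 0.00], and 9.6% of all genes passed 2-fold. On the mural side Mmp14 was at 45.6, 46.6, 124 and 124 CPM. None of the 3 ratios given for the class passed 2-fold on either side with both libraries above 0 UMIs: day 7 to day 2 was 0.88 [0.15, 1.73] on the fibroblast side, and reversed to sham was 1.42 [−0.17, 3.62] on the mural side, which made up 12 of the 13 sham cells. The part of the makeup in the ratios of the class was not tested.

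Phagocytes held the largest share of Mmp14 UMIs. Their level was 13.2 [2.71 to 38.5], 41.7 [36.7 to 47.2], 47.6 [44.4 to 51.0] and 59.8 [53.2 to 67.1] CPM, higher on day 2 than in sham (1.59 [0.10, 3.53]) and after reversal than in sham (2.10 [0.61, 4.04]), from 3 UMIs in sham. Thinned to 1000 UMIs per cell these ratios were 1.575 [−0.95, 5.21] and 2.05 [−0.43, 5.67], which ended both calls. Macrophages had 22.5, 54.8, 62.2 and 93.0 CPM, and the reversed level lay above that of day 7 without overlap (0.57 [0.37, 0.77]), under 2-fold. T cells gave 0, 0, 8.98 and 4.07 CPM.

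Endothelium had 34.8, 62.8, 50.5 and 46.5 CPM of Mmp14, and no ratio passed 2-fold. Tubule cells went from 1.48 to 6.27, 26.3 and 19.6 CPM, with ratios of 1.55 [0.98, 2.07] on day 2 against sham, 1.91 [1.52, 2.31] on day 7 against day 2 and 3.05 [2.57, 3.50] after reversal against sham. With at most 20% mitochondrial UMIs the ratio of day 2 to sham was 0.32. Tubule cells gated as injured, by markers of damaged epithelium, had 22.6 (2 UMIs), 13.3, 37.2 and 78.2 CPM, higher on day 7 than on day 2 (1.42 [0.75, 2.12], background 9.18%) and higher again after reversal (1.05 [0.65, 1.46], 5.39%, but 0.99 without the 5 richest cells of each library). Loop of Henle cells had 12.6, 11.8, 46.2 and 33.4 CPM (day 7 against day 2, 1.88 [1.20, 2.58], background 8.96%), and principal cells of the collecting duct 0, 9.48, 41.9 and 26.2 CPM (2.04 [0.85, 3.31], 6.99%, but with 14 against 2 UMIs, too few for a call, without the 5 richest cells of each library).

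Mmp19, a secreted protease of stromal and myeloid cells, was sparse. In Ly6c2-high monocytes it was at 29.5 (1 UMI), 10.6, 19.3 and 12.9 CPM, and in fibroblasts and mural cells at 0, 12.7, 25.9 and 7.11 CPM from 0, 2, 21 and 7 UMIs. No cell of these classes held more than 4 UMIs. In phagocytes as a whole it was at 4.39, 4.97, 3.48 and 2.02 CPM, and no ratio passed 2-fold. In macrophages the reversed library was lower than day 7 (−1.12 [−1.91, −0.06]), from 3 against 39 UMIs.

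Timp1, the inducible inhibitor of most secreted metalloproteinases, was nearly absent from the sham library. Sham gave 0 UMIs in 13 fibroblasts or mural cells, 1 in 229 endothelial cells, 1 in 3405 tubule cells and 2 in 63 phagocytes. In fibroblasts and mural cells it was at 929 [784 to 1092] CPM on day 2, 1678 [1590 to 1769] on day 7 and 555 [509 to 603] after reversal. Against the upper limit of 3 UMIs that 0 allows in the sham class, day 2 was at least 20.7-fold and the reversed library at least 12.4-fold higher, or 16.7-fold and 10.0-fold at the lower bounds that include the counting error of the later library. Of the 13 sham cells 12 were on the mural side, whereas 145 of the 146 day 2 UMIs lay on the fibroblast side, so these folds also compare different cells. The ratio of day 7 to day 2 was 0.85 [0.61, 1.11], or 1.02 with TMM scaling, and that of reversed to day 7 −1.59 [−1.74, −1.45], lower past 2-fold.

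Nearly all of this Timp1 lay on the fibroblast side of the class. There it was at 2901 [2448 to 3413] CPM on day 2, 145 UMIs in 4 of 5 cells, 1765 [1673 to 1862] on day 7 and 1114 [1019 to 1216] after reversal, and the ratio of reversed to day 7 was −0.66 [−0.81, −0.51], under 2-fold. The mural side had 0, 1, 0 and 44 UMIs, or 82.4 [59.9 to 111] CPM after reversal. Single cells weighed heavily: 1 cell held 101 of the day 2 UMIs and 1 held 444 of the 1359 of day 7, and the 5 richest cells held 59.7% on day 7. With doublets kept in, the class held 3143 UMIs of Timp1 on day 7 (2990 CPM) and 852 after reversal (788 CPM), so the cells removed as doublets held more of its Timp1 UMIs on day 7 than the cells kept.

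Away from stroma, Timp1 was higher after obstruction in endothelium and epithelium. Endothelium had 1.66, 57.1, 38.3 and 23.3 CPM, higher on day 2 (4.45 [2.42, 5.83]) and after reversal (3.19 [1.16, 4.57]) than in sham, from 1 sham UMI. Thinning ended both calls and removal of the 5 richest cells that of day 2, each with 0 UMIs left in sham. Tubule cells had 0.087, 20.7, 35.7 and 13.6 CPM, with ratios to sham of 4.32 [3.84, 4.44] and 3.74 [3.26, 3.87], and the reversed library was below day 7 (−1.33 [−1.62, −1.05], but −0.73 with at most 20% mitochondrial UMIs). Thinning ended both tubule calls against sham (4.40 and 3.38), with 0 UMIs left in sham. The intercalated cells of the collecting duct were the highest tubule class on day 7, at 0, 52.5 [41.0 to 66.2], 81.7 [65.6 to 101] and 16.8 [9.76 to 26.8] CPM. Their day 2 level was at least 5.99-fold that of the 3 UMIs that 0 allows in sham, or 4.74-fold at the lower bound that includes the counting error of day 2, and the reversed library was lower than day 7 (−2.22 [−3.01, −1.49], background 5.7%). Injured tubule cells stayed level at 33.6, 35.5 and 29.6 CPM over the 3 later libraries, after 0 UMIs in 12 sham cells. In proximal tubule of the reversed library 31 of 69 UMIs lay in 1 cell.

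Phagocytes had 8.78 (2 UMIs), 26.8, 31.3 and 17.9 CPM of Timp1, and no ratio over all phagocytes passed 2-fold. Among them, type 2 dendritic cells had 0, 47.4, 50.4 and 17.8 CPM, from 0, 40, 122 and 12 UMIs. Both day 2 against sham and reversed against day 7 (−1.45 [−2.37, −0.63]) passed 2-fold there. In macrophages the ratio of reversed to day 7 was −0.87 [−1.31, −0.46], under 2-fold. T cells gave 0, 0, 17.2 and 6.10 CPM, so that on day 7 the phagocyte level was less than 2-fold that of T cells. Phagocytes with Mmp12 had Timp1 in 27.4% on day 2, 25.1% on day 7 and 15.8% after reversal, against 11.7%, 15.3% and 7.69% of phagocytes without Mmp12. The first were deeper, with medians of 13032, 8144 and 8408.5 UMIs against 9249, 6128 and 6333.5, and the part of depth was not tested.

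**Figure D5:**
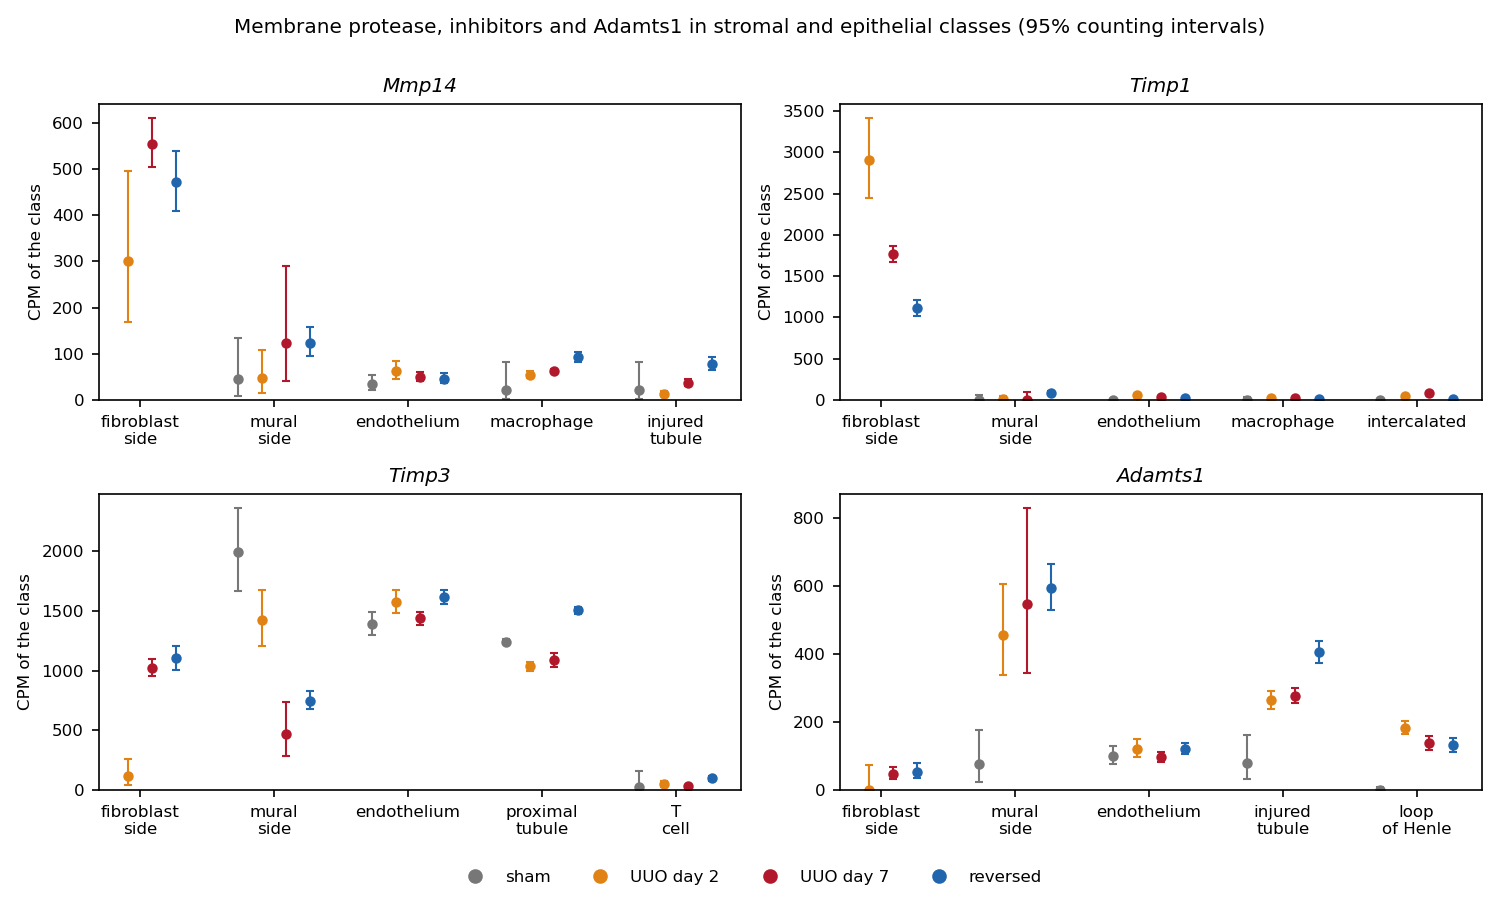
Level in CPM (y axis, linear) of Mmp14, Timp1, Timp3 and Adamts1 in stromal, endothelial, epithelial and immune classes (x axis), 1 point for each library with its 95% Poisson interval; the fibroblast side in sham (1 cell) is left out. Timp1 is highest on the fibroblast side in the 3 later libraries, Timp3 is high in endothelium, proximal tubule and stromal cells, and Adamts1 is highest on the mural side in the 3 later libraries.

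Timp3, the matrix-bound inhibitor, passed 2-fold in no comparison in vessels and proximal tubule. Endothelium had 1389 [1297 to 1487], 1578 [1486 to 1673], 1436 [1385 to 1490] and 1617 [1558 to 1678] CPM, and 80.3%, 98.0%, 91.3% and 93.7% of endothelial cells had a UMI. Proximal tubule had 1242 [1220 to 1264], 1035 [1000 to 1070], 1089 [1034 to 1146] and 1504 [1474 to 1534] CPM. The ratio largest in size over both classes was 0.47 [0.39, 0.55], after reversal against day 7 in proximal tubule.

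Pooled tubule cells differed from this, with 1109, 501, 467 and 990 CPM of Timp3, lower on day 2 than in sham (−1.14 [−1.19, −1.10], but between −0.90 and −0.89 with cells weighted equally or thinned) and higher after reversal than on day 7 (1.08 [1.03, 1.14], but 0.86 with at most 20% mitochondrial UMIs). Proximal tubule cells were 3053 of 3405 tubule cells in sham, 604 of 1240 on day 2, 211 of 838 on day 7 and 1132 of 1696 after reversal, and within them the first ratio was −0.26 [−0.32, −0.21]. Loop of Henle cells had 263, 109, 229 and 280 CPM, lower on day 2 than in sham (−1.26 [−1.55, −0.97], background 11.2%) and higher on day 7 than on day 2 (1.06 [0.80, 1.32], but 0.95 without the 5 richest cells of each library). Injured tubule cells had 971 CPM in sham from 86 UMIs in 12 cells, then 290, 401 and 365 CPM, lower on day 2 (−1.74 [−2.07, −1.39], background 14.0%) and after reversal (−1.41 [−1.74, −1.07], 12.1%) than in sham. In sham 76.7% of these UMIs lay in 5 cells, and without the 5 richest cells of each library the ratios were −0.58 [−1.23, 0.14] and −0.15 [−0.79, 0.57], which ended both calls. Of the sham cells 91.7% lay in 1 of 2 clusters with injury markers, while the largest part of the later injured cells lay in the other, so the ratios also compare differently clustered cells. Distal tubule cells at 289, 203, 331 and 309 CPM, principal cells at 388, 385, 500 and 337 CPM and intercalated cells at 222, 157, 126 and 143 CPM passed 2-fold in none of the 4 comparisons.

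In fibroblasts and mural cells Timp3 was at 1970 [1649 to 2336], 1011 [860 to 1181], 998 [930 to 1069] and 911 [853 to 973] CPM. The reversed library was lower than sham (−1.11 [−1.38, −0.84]), but 110 of the 132 sham UMIs lay in 1 of 13 cells, and the ratio was 0.60 without the 5 richest cells, 0.064 with cells weighted equally, 0.22 after thinning and −0.77 with TMM scaling. Its mural side was at 1989, 1427, 473 and 750 CPM from 12, 17, 6 and 55 cells, lower on day 7 than on day 2 (−1.59 [−2.36, −0.90], 19 against 153 UMIs, background 23.0%) and lower after reversal than in sham (−1.41 [−1.69, −1.11], background 16.2%). However, 1 mural cell held 110 of the 131 sham UMIs and 1 held 63 of the 153 of day 2. Without the cell with most Timp3 in each library, an alternative chosen after the data were seen, the first ratio was −1.79 [−2.96, −0.81] and the second turned to 0.42 [−0.21, 1.13]. Its fibroblast side was at 120 (6 UMIs), 1025 and 1103 CPM from day 2 on, higher on day 7 than on day 2 (3.08 [1.96, 4.51], background 9.96%). The level of the whole class on days 2 and 7 thus joins sides whose ratios had opposite signs. Phagocytes had 57.0, 25.7, 35.4 and 64.1 CPM of Timp3, beside 28.3, 47.1, 34.4 and 96.6 CPM in T cells, with up to 17 UMIs in 1 phagocyte on day 7. The phagocyte ratio of day 2 to sham was −1.12 [−1.93, −0.20], but 5 of 12 alternatives ended this call, with values from −0.91 to −0.16: doublets kept, a pseudocount of 10 CPM, thinning, removal of the 5 richest cells and subtraction of the T cell level. Whether these UMIs are expression or free RNA was not tested. Neutrophils had 311, 78.2 and 109 CPM from day 2 on, lower on day 7 than on day 2 (−1.98 [−2.95, −1.06]), from 29, 16 and 7 UMIs. Of the day 2 UMIs 89.7% lay in 5 of 20 neutrophils, and too few UMIs for a call, 2 against 3, remained without the 5 richest cells of each library. The 20 neutrophils of day 2 also held 15 UMIs of Adamts1, 13 of them in 1 cell, against 0 on day 7.

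Adamts1, the proteoglycan-cleaving protease, was higher on day 2 than in sham in each of the 6 tubule classes gated by markers. Loop of Henle cells had 1.40 (1 UMI in 191 cells), 184 [165 to 203], 137 [117 to 159] and 132 [113 to 154] CPM, with a ratio of 6.26 [4.38, 7.48] on day 2 and 5.79 [3.90, 7.01] after reversal against sham, where 11.5% of all genes passed in either direction. Proximal tubule had 6.53, 38.6, 83.9 and 24.8 CPM, 2.40 [1.99, 2.80] higher on day 2. Injured tubule cells had 79.0 (7 UMIs), 263, 277 and 404 CPM (1.72 [0.68, 3.02]), principal cells 8.50 (3 UMIs), 107, 50.7 and 26.2 CPM (3.51 [2.01, 5.33]) and intercalated cells 2.92 (1 UMI), 41.4, 23.9 and 15.8 CPM (3.43 [1.23, 5.33]). Distal tubule cells had 0 UMIs in 40 sham cells and then 229, 138 and 32.8 CPM, at least 11.9-fold above the 3 UMIs that 0 allows on day 2, or 9.17-fold at the lower bound that includes the counting error of day 2. All 6 classes thus passed 2-fold on day 2, 5 of them also without the 5 richest cells of each library (distal tubule then had 7 against 0 UMIs, too few for a call), where 6.53% of all genes were 2-fold higher in loop of Henle, 7.97% in proximal tubule, 2.77% in injured, 10.6% in principal, 7.59% in intercalated and 17.5% in distal tubule cells. Removal of the 5 richest cells leaves 0 sham UMIs in loop of Henle, principal and intercalated cells, so the size of their ratios then depends on the pseudocount. Of the 6 classes, 4 did not cluster alike in all libraries. For distal tubule and loop of Henle, in sham 90% and 91.6% of them lay in the distal tubule and loop clusters, and after reversal 72.9% and 57.1%, whereas on day 2 87.5% and 50.6%, and on day 7 95.2% and 67.4%, lay in 1 of the 2 clusters that injury markers define, in which 37.3% of the cells were gated as injured. Proximal tubule cells were spread over several clusters, the largest the same in sham (39.9%) and after reversal (26.9%), but 65.1% of those of day 2 lay in a cluster with 4 sham cells and 411 of day 2, and the largest part of those of day 7 (29.9%) in a further one. Of injured tubule cells, 91.7% in sham lay in the other of these 2 clusters, and the largest part of the later ones (38.2% to 42.6%) in the first. At least 92.8% of principal and 99.2% of intercalated cells lay in 1 cluster each in every library. The part of these shifts in the ratios of the 4 classes was not tested.

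The later course of Adamts1 differed between segments. Injured tubule cells were at 263, 277 and 404 CPM from day 2 to reversal, and the reversed level lay above that of day 7 without overlap (0.54 [0.38, 0.71]). Loop of Henle cells stayed at 132 to 184 CPM. Proximal tubule was higher on day 7 than on day 2 (1.10 [0.72, 1.47]) and lower after reversal than on day 7 (−1.72 [−2.06, −1.36]), though still above sham (1.78 [1.39, 2.17]), where 9.03%, 7.87% and 9.25% of all genes passed. On day 7, 5 of 211 proximal tubule cells held 47.8% of the 113 UMIs, and without the 5 richest cells of each library the first of these ratios was 0.53 [0.06, 1.00], which ended the call, and the second −1.16 [−1.60, −0.70]. Distal tubule was lower after reversal than on day 7 (−2.04 [−2.96, −1.19], background 11.0%), and principal cells were lower on day 7 than on day 2 (−1.06 [−1.72, −0.44]). Without the 5 richest cells distal tubule had 1 against 18 UMIs, too few for a call, and principal cells −0.80 [−1.75, 0.10]. Over all tubule cells the levels were 6.64, 119, 149 and 89.1 CPM, with ratios to sham of 3.98 [3.68, 4.28] on day 2 and 3.56 [3.26, 3.87] after reversal. With at most 20% mitochondrial UMIs these were 2.31 and 2.63.

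Immediate-early genes, which cells switch on within minutes of stress or handling, were higher in the 3 later libraries than in sham in pooled tubule cells (a set chosen after the data were seen). In the order sham, day 2, day 7 and reversed, Fos was at 60.0, 173, 264 and 268 CPM, Jun at 45.9, 194, 412 and 294 CPM and Egr1 at 17.9, 65.2, 96.8 and 91.1 CPM. In injured tubule cells Fos was at 1603, 380, 495 and 960 CPM, and in loop of Henle cells at 111, 42.3, 105 and 307 CPM. Jun, Egr1 and the other tubule classes are not given by class here. The part of immediate-early genes in the Adamts1 ratios was not tested.

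In fibroblasts and mural cells Adamts1 was at 89.6 (6 UMIs), 312, 72.8 and 346 CPM, lower on day 7 than on day 2 (−2.08 [−2.65, −1.51]) and higher after reversal than on day 7 (2.23 [1.84, 2.65]). On the mural side the levels were 75.9, 457 [338 to 604], 547 [343 to 829] and 594 [530 to 663] CPM, with ratios of 0.26 [−0.54, 1.01] and 0.12 [−0.50, 0.81] for the same comparisons, and on the fibroblast side 0, 48.1 and 53.3 CPM from day 2 on. The day 7 mural level rests on 22 UMIs in 6 cells, 15 of them in 1 cell, and without the cell with most Adamts1 in each library both ratios moved, to −0.77 [−2.18, 0.41] and 1.31 [0.25, 2.62]. Mural cells were 17 of 22, 6 of 83 and 55 of 114 cells of the class on day 2, day 7 and after reversal, and the part of this makeup in the ratios of the class was not tested. Mural cells of day 2 and of the reversed library were above those of sham (2.57 [1.26, 4.22] and 2.95 [1.72, 4.55]), where 8.76% and 16.2% of all genes passed. Endothelium had 99.4, 121, 96.7 and 121 CPM with no ratio past 2-fold. Phagocytes had 0, 4.80, 8.55 and 9.47 CPM, beside 0, 4.71, 0.748 and 22.4 CPM in T cells.

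Other genes of matrix turnover also differed between libraries in phagocytes and stroma. In phagocytes 4 of 5 other metalloproteinases were higher on day 7 than on day 2, with a median of 1.29 against 0.06 for all genes: Mmp2 (1.47), Mmp11 (1.45), Mmp25 (1.29) and Mmp23 (1.02), each from 30 to 52 UMIs on day 7, where 10.1% of all genes passed in either direction. Timp2, the inhibitor that helps Mmp14 to activate Mmp2, was also higher (1.32 [1.16, 1.48]), at 58.1 and 147 CPM. Of 12 matrix substrates 8 were higher and 1 was lower in phagocytes on day 7 than on day 2 (median 1.51), among them Col3a1 (3.26 [2.74, 3.78]) at 3.31 and 40.2 CPM. In fibroblasts and mural cells, for which Col3a1 is also a gate marker, it was at 2150 and 10608 CPM in these libraries. Fibroblast markers, Col3a1 among them, summed to 28.5 and 129 CPM in phagocytes. The part of fibroblast transcripts in the phagocyte levels of these collagens, metalloproteinases and Timp2 was not tested. The count of other metalloproteinases covers only genes with at least 30 UMIs over both libraries. A gene high on day 7 reaches that minimum more easily, so the count describes no more than that.

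After reversal, 4 of 12 matrix substrates were lower in phagocytes than on day 7 and none was higher, and in fibroblasts and mural cells 8 of 12 were lower and none higher (median −1.40 against 0.14 for all genes). Of all genes 2.8% passed in phagocytes and 12.7% in fibroblasts and mural cells. Col1a1 went from 7710 to 1595 CPM in the latter class (−2.27 [−2.35, −2.19]) and from 8110 to 3214 CPM on its fibroblast side alone (−1.34 [−1.42, −1.25]). That side made up 77 of 83 cells of the class on day 7 and 59 of 114 after reversal. The part of this makeup in the count of lower substrates was not tested. Of the 12 substrates, Col1a1, Col1a2, Col3a1 and Dcn are also markers that gate this class, and collagen markers split off its fibroblast side. Their levels there thus come from values that were used to choose the cells. On day 2 against sham 3 of 6 cathepsins and cystatins were higher in phagocytes, Ctsd (1.81 [1.34, 2.33]), Ctsl (1.52 [0.83, 2.32]) and Cstb (1.97 [1.46, 2.54]), with a median of 0.86 over the 6 against 0.17 for all genes, 10.4% of which passed. In tubule cells 6 of 6 matrix substrates were higher on day 2 than in sham (median 1.31 against 0.50 for all genes) and 11 of 11 after reversal (2.58 against 0.47), beside 21.0% and 21.6% of all genes. These counts cover only the substrates, of 12, with at least 30 UMIs over both libraries. A substrate high in the later library reaches that minimum more easily, so the counts describe no more than that. The part of transcripts from other cells in them was not tested. Lcn2, whose product binds and protects Mmp9, had 0 UMIs in 63 sham phagocytes and was at 83.1, 59.3 and 19.1 CPM from day 2 on, lower after reversal than on day 7 (−1.58 [−1.88, −1.29]). It is also a marker of the injured tubule gate, and whether its phagocyte UMIs are expression or free RNA was not tested.

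The genes most like each member, by Pearson correlation of log2(CPM + 10) over 37 sums of a class in a library and 13490 genes, are a description of these sums, which share libraries and depth. For Mmp8 they were Mefv (0.97), Pram1 (0.97) and Lilra6 (0.96), and for Mmp9 Wfdc21 (0.95), Retnlg (0.94) and Stfa2l1 (0.94). For Mmp12 they were Clec9a (0.93), Tnni2 (0.93) and C3ar1 (0.92), and for Mmp13 Gm13373 (0.98), Prss30 (0.92) and Bank1 (0.92). Mmp14 was most like Fam114a1 (0.85), Casp12 (0.84) and Fblim1 (0.83), Mmp19 most like Vcan (0.95), Col14a1 (0.89) and Crispld2 (0.88), and Timp1 most like Serping1 (0.89), Dcn (0.88) and Nnmt (0.88). For Timp3 they were Ccser2 (0.91), Klf9 (0.86) and Dock9 (0.86), and for Adamts1 Tsc22d1 (0.90), Hbegf (0.89) and Agrn (0.86).

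The Smart-seq2 wells, read without UMIs and without a label of time, were mostly phagocytes. Of 768 wells, with 441 to 7854119 reads in genes, 724 had at least 1000 genes, 622 of them phagocytes, 39 proximal tubule, 27 fibroblasts or mural cells, 15 endothelium and 4 neutrophils. Mmp12 had a read in 371 phagocyte wells (59.6%) and at least 10 reads in 71 (11.4%), with up to 17309 in 1 well. Mmp14 had 258 (41.5%) and 68 (10.9%), and Mmp13 108 (17.4%) and 18 (2.89%). A single read was also common in other wells, with Mmp12 in 22 of 39 proximal tubule wells and 7 of 15 endothelial wells, so wells with at least 10 reads were also counted. At that level proximal tubule had 6 of 39 wells with Mmp12 (15.4% [5.86 to 30.5], exact binomial), beside 11.4% of phagocyte wells, and no endothelial well had it.

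Timp1 had at least 10 reads in 9 of 27 fibroblast or mural wells and in 13 of 622 phagocyte wells (2.09%), and Timp3 in 14 of 27 and in 7 of 622. In both cases 1 fibroblast or mural well held most of the reads of its class, 97.3% for Timp1 and 90.6% for Timp3. Mmp8, Mmp9 and Mmp19 had at least 10 reads in 3, 1 and 4 phagocyte wells, and 1 well held 3984 of the 4019 phagocyte reads of Mmp9. Adamts1 had reads in 3 of the 724 wells, 1 of them a phagocyte with 1 read, and in none of the 39 proximal tubule, 27 fibroblast or mural and 15 endothelial wells.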

How the data were processed

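Droplet libraries (10x 3′ V2) were made from kidneys digested on ice and sorted for live cells, per the labels' protocols. Unscaled UMI counts of each cell, and unscaled read counts of each Smart-seq2 well, are what the authors deposited; Cell Ranger, STAR and GRCm38 (mm10) are named in the submitters' processing notes, without versions. The Smart-seq2 table holds 93 rows that name no mouse gene, 92 spike-ins and EGFP, with 1.57% of its reads, which were left out.

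A cell had to show 200 genes or more, with mitochondrial UMIs no higher than 50%, and the highest Scrublet scores were removed at 0.8% per 1000 deposited cells. A cell was given the class with the highest mean of log2(1 + UMIs per 10000) over its markers, each scaled by its mean over the 100 highest cells, with at least 3 markers detected (2 for phagocyte subclasses); 50 cells were unassigned. Free RNA was not removed, and T cells are given beside low levels as a background class. UMIs were summed over the cells of a class in a library. With 1 library per time point no p-value was computed, and intervals cover counting error only, not animals, sorting or batch. The ratio and its interval were tested on counts simulated from phagocytes of day 7 and day 2.

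The 9 genes and the gene lists were chosen with earlier results of these data known. All 9 are named; of each other list at most the 4 genes with the largest ratio in phagocytes are named, and the genes most like each member are the 3 with the highest correlation. Alternatives were the mitochondrial limit, doublets, Leiden clusters, TMM (edgeR 4.0.16) and median-of-ratios (DESeq2 1.42.0) scaling, the pseudocount, equal weight per cell, thinning, the UMI minimum, removal of the 5 richest cells and subtraction of the T cell level. Python 3.11.15, scanpy 1.11.5, scipy 1.17.1 and R 4.3.3 were used.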

Additional observations from a re-analysis of the deposited data

Results flagged for a closer look

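Adamts1 moved in opposite directions in different cell classes between the same libraries, a difference that was not tested. From day 2 to day 7 its log2 ratio was 1.10 in proximal tubule, −1.06 in principal cells and −2.08 in fibroblasts and mural cells. Without the 5 cells with most Adamts1 in each library the first was 0.53 and the second −0.80, neither past 2-fold. From day 7 to reversal it was −1.72 in proximal tubule, −2.04 in distal tubule and 2.23 in fibroblasts and mural cells. In the last class the share of mural cells, which held 49 of 49, 22 of 59 and 317 of 341 of its Adamts1 UMIs, moved in the same way (17 of 22, 6 of 83 and 55 of 114 cells on day 2, day 7 and after reversal), and on the mural side alone the ratios were 0.26 and 0.12, with 15 of the 22 day 7 UMIs in 1 of 6 cells. Without the cell with most Adamts1 in each library the mural ratios were −0.77 and 1.31. The part of this makeup was not tested.

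Timp3 was 1.06 higher on day 7 than on day 2 in loop of Henle cells (0.95 without the 5 richest cells of each library) and −1.98 in neutrophils, where it rests on 16 against 29 UMIs, 89.7% of the latter in 5 of 20 cells. This difference was not tested either, and whether neutrophils express Timp3 or took up free RNA was not tested.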

How the results depend on the processing

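No paired analysis was possible because each time point is 1 library, and for the same reason no replicate could be left out. Of the 24 ratios of the 9 genes called in phagocytes, tubule cells and endothelium, each under 12 alternatives (288 values), 285 kept their direction and 245 their call. The number of genes past 2-fold became 1 in tubule cells, reversed against day 7, with at most 20% mitochondrial UMIs. With classes from clusters it became 3 in phagocytes, reversed against day 7, and 2 in endothelium, day 2 against sham. With a pseudocount of 10 CPM it became 0 in phagocytes and 1 in tubule cells, day 7 against day 2, and 1 in tubule cells, reversed against day 7. With equal weight per cell it became 0 in phagocytes, reversed against day 7. Thinning, which leaves fewer UMIs, gave 0, 1 and 1 in phagocytes (for day 2 and sham, day 7 and day 2, and reversed and sham), 1, 0 and 2 in tubule cells and 0 and 0 in endothelium against sham. Some of these ratios kept their size with wider intervals, as Mmp14 in phagocytes, reversed against sham (2.05 against 2.10), and in tubule cells, day 7 against day 2 (2.16 against 1.91), while thinned Timp1 in tubule cells and endothelium had 0 UMIs in sham, so that its values there depend on the pseudocount. Without the 5 richest cells phagocytes had 4, day 7 against day 2 and reversed against day 7. With the T cell level subtracted phagocytes had 2, reversed against day 7, and endothelium 1, day 7 against day 2, as it had with no minimum of UMIs. Smart-seq2 phagocyte wells held 8 of the 9 genes in at least 1% of wells, and 5 at 10 reads or more, also among wells with at least 50000 reads, a limit chosen after the data were seen.

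Removal of the 5 richest cells in single classes, chosen after the data were seen, turned Mmp12 in macrophages, day 2 against sham (0.061), in proximal tubule, reversed against day 7 (−0.092), and in type 1 dendritic cells, reversed against day 7 (−2.85, with 0 UMIs left after reversal). In type 2 dendritic cells 5 of 77 cells held 70.8% of the reversed Mmp12 UMIs, so the order of the reversed and day 7 levels also rests on few cells. Directions turned for Mmp12 in tubule cells, reversed against day 7 (−0.37 with clusters, −0.42 without the 5 richest cells), and Mmp9 in phagocytes, day 7 against day 2 (0.066 without them). In fibroblasts and mural cells they turned for Timp3, reversed against sham (0.064 with equal weight, 0.22 thinned, 0.60 without the 5 richest cells, and 0.42 on the mural side without the richest cell); apart from the removed cells, the cause was not tested. With clusters that class is 1 cluster with 5 cells on day 2, since most mural cells lay in a cluster with podocyte markers. The value of Adamts1, day 7 against day 2, was 5.63 there, but sets 37 UMIs against 0, depends on the pseudocount and shows no turn. Timp1 in that class, reversed against day 7, was −0.68 with clusters and −1.92 with doublets kept, against −1.59. The sham library holds 63 phagocytes, 13 fibroblasts or mural cells and no neutrophils, which limits every ratio to sham there.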
